A study of Mus musculus with 17 samples.

Results

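The osteocyte genes Dmp1, Phex, Mepe, Sost, Fgf23, Fam20c and Pdpn were followed by symbol through all 17 count files, as 7 of 55335 genes counted. They were taken by name, for their known roles in osteocytes, by a rule that uses no measured value, although earlier results of these data were known. Total RNA came from bone cells of mice that carry 0, 1 or 2 copies of a Cxcr4 knock-in allele called 1013 (WT, +/1013 and 1013/1013), a gain-of-function allele of the chemokine receptor gene. The sort took, from flushed and collagenase-digested long bones, cells negative for CD45, lineage markers, c-Kit, CD71 and CD31 and positive for CD51, and split them into SSCs (skeletal stromal/stem cells, Sca-1+ PDGFRα+) and OPCs (osteoblast progenitor cells, Sca-1-, PDGFRα+ or PDGFRα-). Each library was made from a pool of 3000 sorted cells of 3 mice, described as female littermates of 8 to 12 weeks, and every group has 3 libraries apart from the 1013/1013 SSCs, which have 2. The allele is carried by every cell of the animal and shortens the receptor's C-terminal tail, which gene counts cannot show, so the genotype labels could not be checked against the counts. No osteocyte fraction was sorted, and the values are levels of these genes in OPCs and SSCs.

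Osteocytes are osteoblasts that have become embedded in the bone matrix they made, and they control both mineral deposition and phosphate balance. Dmp1 and Mepe encode acidic matrix proteins of the SIBLING family (small integrin-binding ligand N-linked glycoproteins), Fam20c encodes the secretory-pathway kinase that phosphorylates such proteins, and Phex encodes a membrane endopeptidase whose loss causes X-linked hypophosphatemia. Fgf23 encodes the hormone that makes the kidney excrete phosphate, Sost encodes sclerostin, an inhibitor of Wnt signalling in bone, and Pdpn encodes podoplanin, a surface glycoprotein of early, dendrite-forming osteocytes that fibroblastic and lymphatic cells also carry.

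In GENCODE M21 (mm10) all 7 are protein-coding genes, and no exon of theirs overlapped an exon of another gene. Dmp1 (chr5:104202613-104214102, + strand) and Mepe (chr5:104325329-104338611, + strand) lie in the same cluster, with 111226 bases between the end of the first and the start of the second. Phex (chrX:157162075-157415312, - strand) is the longest of the group and holds 3 other annotated genes within its introns. Fam20c lies at chr5:138754514-138810077 (+ strand), Sost at chr11:101962458-101967015 (- strand), Fgf23 at chr6:127072902-127081408 (+ strand) and Pdpn at chr4:143267431-143299564 (- strand).

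The start regions of Dmp1, Mepe and Phex are shown because, of the members that were well detected in OPCs, Dmp1 and Mepe are neighbours of the same family whose levels did not follow each other across OPC libraries, while those of Dmp1 and Phex did. They are RefSeq windows of 250 bases before to 50 bases after a start site on mm10, printed 5′ to 3′ on the gene's strand, and capitals mark the RUNX core motif TGTGGT or its reverse complement ACCACA, which RUNX2, a master regulator of osteoblasts, can bind. Dmp1 is chr5:104202367-104202666 (+ strand), Mepe chr5:104325079-104325378 (+ strand) and Phex chrX:157415237-157415536 (- strand).
Dmp1: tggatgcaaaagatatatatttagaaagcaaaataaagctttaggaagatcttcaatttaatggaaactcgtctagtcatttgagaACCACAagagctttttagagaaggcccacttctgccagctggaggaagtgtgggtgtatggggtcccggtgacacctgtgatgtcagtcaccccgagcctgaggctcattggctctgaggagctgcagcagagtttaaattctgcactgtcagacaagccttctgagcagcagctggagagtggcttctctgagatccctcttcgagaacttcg
Mepe: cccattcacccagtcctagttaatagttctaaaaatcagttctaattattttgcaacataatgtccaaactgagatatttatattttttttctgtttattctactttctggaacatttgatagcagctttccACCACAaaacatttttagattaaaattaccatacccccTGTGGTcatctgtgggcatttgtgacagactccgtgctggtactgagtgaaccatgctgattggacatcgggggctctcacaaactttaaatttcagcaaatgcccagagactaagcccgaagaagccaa
Phex: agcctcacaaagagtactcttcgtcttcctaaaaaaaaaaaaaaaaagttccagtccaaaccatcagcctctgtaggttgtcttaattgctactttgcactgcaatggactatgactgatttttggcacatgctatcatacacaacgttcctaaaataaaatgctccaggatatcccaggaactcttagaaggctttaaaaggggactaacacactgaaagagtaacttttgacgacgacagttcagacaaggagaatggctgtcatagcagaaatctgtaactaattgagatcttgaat
The motif stood once in the Dmp1 window, 164 bases before the start, and 2 times in the Mepe window, 118 and 80 bases before it. It was not found in the windows of Phex, Fam20c, Sost, Fgf23 and Pdpn, nor in that of a second, upstream Dmp1 start that RefSeq lists. Of 32851 RefSeq windows of the same length, 16.8% held it. The letters TATAAA or their reverse complement TTTATA, also searched, stood in the Mepe window only, 173 bases before the start, against 13.6% of all windows. These matches describe letters in a window and say nothing about binding.

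The libraries held 64099849 to 92683497 counts on genes in OPCs and 44217695 to 50509592 in SSCs. Levels below are CPM, counts relative to the size of the library, scaled by the trimmed mean of M values (TMM) over all 17 libraries. A count of 3 was taken as the limit of detection, which is 0.0324 to 0.0468 CPM of the plain library total in OPCs and 0.0594 to 0.0678 in SSCs and covers counting error only, since PCR copies are not independent molecules. The sort was visible in the counts, with Ly6a (Sca-1) at 0.57 to 12.4 CPM in OPC libraries and at 386 to 1450 CPM in SSC libraries. The share of counts on osteoblast markers was 16.8% to 40.7% in OPCs and 1.15% to 3.21% in SSCs. WT SSC libraries had 21449 to 22599 genes with a count and mutant SSC libraries 15748 to 19227, and 3.68% to 4.15% against at most 2.69% of reads fell on no gene. No batch is labelled, so in SSCs genotype and a difference in library quality cannot be told apart. Each pool is of 3 mice, and it is not stated whether the SSC and OPC pools came from the same mice. The fits between cell types treated the libraries as independent, apart from an alternative that also fitted the replicate number. In such bulk samples fewer cells of a type and less RNA per cell cannot be told apart.

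By CPM, the 7 genes fell into 3 broad levels in OPCs. Dmp1, Fam20c, Phex and Mepe were abundant, Sost and Fgf23 were near or under 3 CPM, and Pdpn was at the limit of detection. Fgf23 was at 0 in 6 of the 9 OPC libraries. Per kilobase of exon, the scale used here to order the genes, Dmp1 was at 197 CPM per kb in WT OPCs (120.0 to 259 in the 3 libraries), above 99.4% of genes that had a count in the group. Fam20c followed at 47.2 CPM per kb (38.2 to 64.6), Mepe at 27.4 (12.9 to 51.4) and Phex at 22.5 (14.5 to 28.4). The lowest Dmp1 library was above the highest library of each of the other 3, whereas the ranges of Mepe and Fam20c overlapped, as did those of Mepe and Phex. In WT SSCs the order changed. Fam20c led at 14.5 CPM per kb (10.8 to 18.2) and was above 91.7% of genes with a count, and its range did not overlap those of Dmp1 at 1.33 (0.547 to 2.87), Phex at 0.872 (0.603 to 1.19) and Mepe at 0.213 (0.0460 to 0.472). Dmp1 and Phex overlapped in range.

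**Figure D1:**
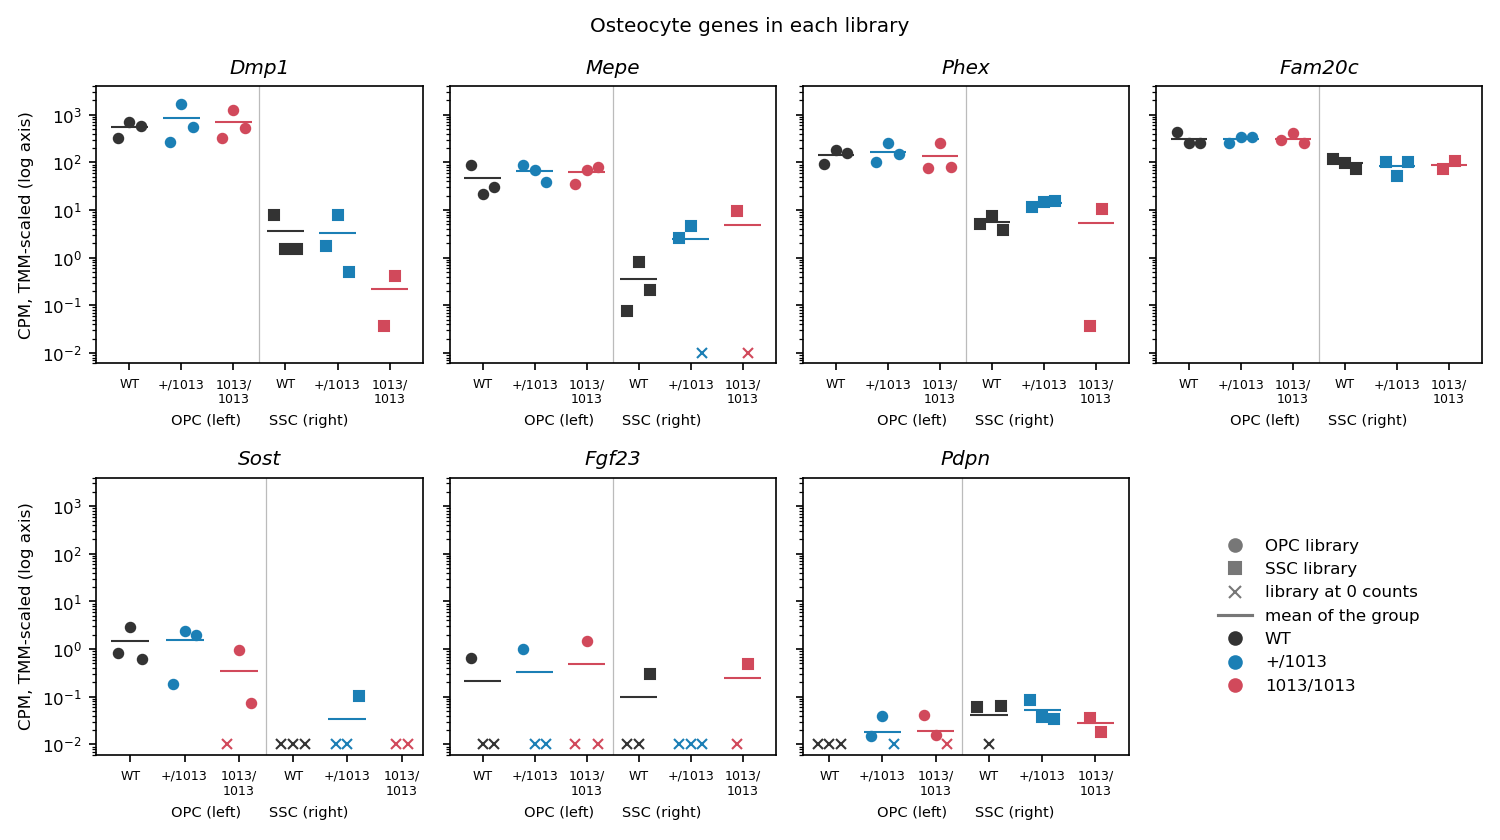
Level of each of the 7 genes in every library, in TMM-scaled CPM on a log axis, with OPC libraries as circles and SSC libraries as squares, genotypes by colour, group means as bars and libraries at 0 counts as crosses at the foot of the panel. Dmp1, Mepe, Phex and Fam20c were lower in every SSC library than in every OPC library, and Pdpn stayed below 0.09 CPM throughout. The share of all genes that separate the cell types in this way was not counted.

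The first comparison was between cell types within a genotype, fitted with edgeR on all 17 libraries. Calls required a change of at least 1.5-fold and a p, adjusted by Benjamini and Hochberg's method over the 20238 genes tested, under 0.05. Of the 7 genes, 6 were tested (Pdpn was not), and 5 were called lower in SSCs than in OPCs in WT, 3 in +/1013 and 3 in 1013/1013, none higher. Of all genes tested, 5.86%, 6.02% and 6.12% were called lower in SSCs in the 3 genotypes, and DESeq2, an alternative cited below, called 10%, 11.8% and 14.5%. Over the 6 members tested, the median log2 fold change was -5.84 in WT, -5.05 in +/1013 and -4.19 in 1013/1013, against 0.17, 0.00 and -0.20 over all genes tested. These medians take in Sost and Fgf23, some of whose fits rest on an SSC group at 0 counts. They were therefore not read as a trend across the genotypes.

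Dmp1, whose protein binds calcium and nucleates mineral, was at 332, 717 and 582 CPM in the 3 WT OPC libraries and at 7.94, 1.51 and 1.55 CPM in the 3 WT SSC libraries. In +/1013 it was at 268, 1689 and 546 CPM in OPCs and 1.78, 7.74 and 0.506 CPM in SSCs. In 1013/1013 it was at 329, 1279.9 and 529 CPM in OPCs and at 0.0367 and 0.410 CPM in the 2 SSC libraries, which stand for 2 and 22 counts. The lowest OPC library was thus far above the highest SSC library in each genotype. How many of all genes separate the cell types in this way was not counted, here or for the members below. The log2 fold change of SSCs against OPCs was -7.21 ± 1.28 (SE; edgeR adjusted p = 0.00280) in WT, -7.96 ± 1.32 (edgeR adjusted p = 0.00141) in +/1013 and -11.63 ± 1.88 (edgeR adjusted p = 0.00133) in 1013/1013. The call held in each of the 14, 14 and 13 alternatives that could test Dmp1 in the 3 genotypes, with adjusted p up to 0.0172, 0.0115 and 0.0366. The filter that asks for 10 counts in every library removes the gene.

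Phex was at 91.3, 179 and 154 CPM in WT OPCs and 5.20, 7.47 and 3.79 CPM in WT SSCs. It was at 99.4, 257 and 147 CPM in +/1013 OPCs and 11.3, 14.6 and 15.6 CPM in +/1013 SSCs. In 1013/1013 the OPC libraries held 76.6, 253 and 81.6 CPM and the SSC libraries 0.0367 and 10.6 CPM. No SSC library reached an OPC library of its genotype, and the first of the 1013/1013 SSC libraries, with 2 Phex counts, lay far under the second, with 569. Phex was lower in SSCs by a log2 fold change of -4.69 ± 1.09 in WT (edgeR adjusted p = 0.0137), -3.60 ± 1.04 in +/1013 (edgeR adjusted p = 0.0366) and -4.69 ± 1.31 in 1013/1013 (edgeR adjusted p = 0.0316). Its calls were less stable than those of Dmp1. Leaving out WT SSC replicate 1 or 3 gave an adjusted p of 0.0599 or 0.0600 in edgeR, and leaving out 1013/1013 OPC replicate 2 gave 0.0627. In +/1013 the call was lost without OPC replicate 2 (edgeR adjusted p = 0.0952), OPC replicate 3 (0.0673), SSC replicate 1 (0.122), SSC replicate 2 (0.107) or SSC replicate 3 (0.0940), while the log2 fold change stayed between -3.88 and -3.17.

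Mepe, a matrix phosphoglycoprotein whose acidic peptide PHEX can cleave, was at 86.5, 21.6 and 30.3 CPM in WT OPCs and at 0.0774, 0.794 and 0.205 CPM in WT SSCs. The +/1013 libraries held 85.9, 70.2 and 38.7 CPM in OPCs and 2.60, 4.71 and 0 CPM in SSCs. The 1013/1013 libraries held 35.8, 68.7 and 81.3 CPM in OPCs and 9.51 and 0 CPM in SSCs. The highest SSC library of all was therefore 1013/1013 replicate 1, with 519 Mepe counts, the same library that held 2 counts each of Dmp1 and Phex. Mepe was called lower in SSCs in WT, with a log2 fold change of -6.99 ± 1.81 (edgeR adjusted p = 0.0233). In +/1013 it was -4.74 ± 1.61 (edgeR adjusted p = 0.0715) and in 1013/1013 -3.70 ± 1.82 (edgeR adjusted p = 0.198), both short of a call although no library overlapped. In +/1013 it was called by DESeq2 (DESeq2 adjusted p = 0.00978), by edgeR with legacy = FALSE (0.0102) and with the 2 groups fitted alone (0.0490). In WT the call was lost without SSC replicate 1 (edgeR adjusted p = 0.0906) or SSC replicate 3 (0.0864). In 1013/1013 the result turned on SSC replicate 1, without which the group is 1 library at 0 counts and no fold is given.

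Of the 4 members that were abundant in OPCs, Fam20c had the smallest log2 fold change between the cell types and the smallest SE. WT OPC libraries held 426, 252 and 256 CPM and WT SSC libraries 119.7, 95.0 and 71.3 CPM. The +/1013 libraries held 251, 333 and 338 CPM in OPCs and 99.7, 51.8 and 102 CPM in SSCs. The 1013/1013 libraries held 288, 406 and 254 CPM in OPCs and 72.1 and 106 CPM in SSCs. The groups did not overlap in any genotype, and each SSC library still held at least 2706 Fam20c counts. SSCs were lower by a log2 fold change of -1.71 ± 0.32 (edgeR adjusted p = 0.00409) in WT, -1.86 ± 0.32 (edgeR adjusted p = 0.00198) in +/1013 and -1.82 ± 0.38 (edgeR adjusted p = 0.00645) in 1013/1013. The call in 1013/1013 was lost without SSC replicate 1 (-1.57, edgeR adjusted p = 0.0909).

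Sost, which mature osteocytes make, was detected in OPCs at a low level. WT OPC libraries had 62, 182 and 29 counts, +/1013 OPC libraries 12, 124 and 141, and 1013/1013 OPC libraries 0, 62 and 4. Of the 8 SSC libraries, 7 held 0 counts and +/1013 replicate 3 held 6. The mean of 1.47 CPM in WT OPCs was at least 31.8-fold higher than in WT SSCs, with each SSC library set to its limit of 3 counts, and in 1013/1013 the mean of 0.351 CPM gave at least 6.33-fold higher, although 1013/1013 OPC replicate 1 was itself at 0. Both bounds leaned on OPC replicate 2, since without it the WT bound was 15.7-fold and the 1013/1013 mean, 0.0365 CPM, lay under the SSC limit, so that no bound was left. Sost was called by edgeR in WT (edgeR adjusted p = 0.0491) and not in +/1013 (0.151) or 1013/1013 (0.152). DESeq2 called it lower in SSCs in WT, +/1013 and 1013/1013 (DESeq2 adjusted p = 0.00128, 0.0408 and 0.0481). In +/1013 and 1013/1013 that was the only call, with 14 and 12 alternatives run. The WT call was lost when any 1 of the 6 WT libraries was left out, and it held in 7 of 14 alternatives, with edgeR and DESeq2 adjusted p from 0.00128 to 0.122.

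Fgf23 and Pdpn could not be compared. Fgf23 was at 0 in 12 of the 17 libraries and held 47, 64 and 92 counts in 1 OPC library of each genotype (WT replicate 1, +/1013 replicate 1 and 1013/1013 replicate 2), 19 in WT SSC replicate 3 and 26 in 1013/1013 SSC replicate 2. One library of a group therefore carried all of its Fgf23 counts, and no fold is given. Pdpn held 0 to 5 counts in every library and passed 3 counts in 3 of 17, all of them SSC libraries, so that a level up to about that limit cannot be told from none at this depth.

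**Figure D2:**
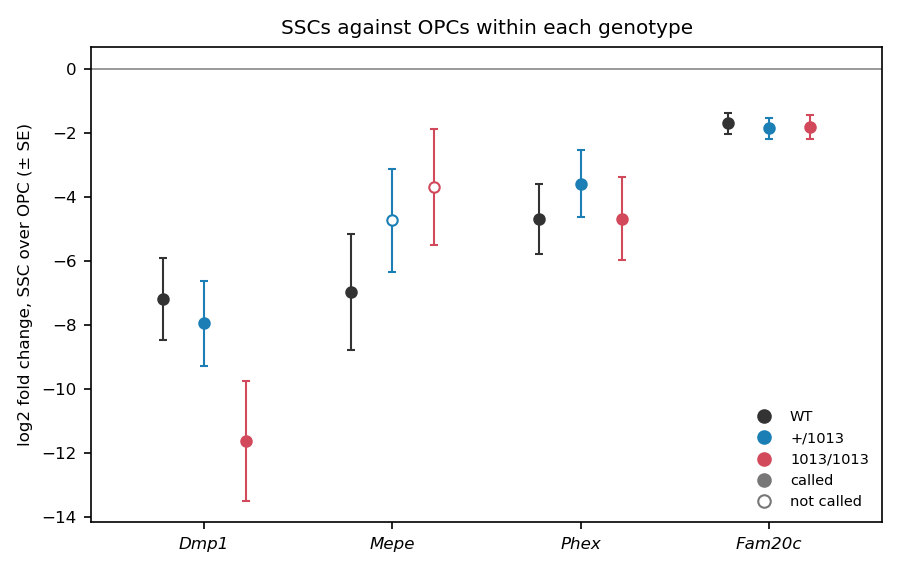
Log2 fold change of SSCs against OPCs for Dmp1, Mepe, Phex and Fam20c in each genotype, from the edgeR fit of all 17 libraries, with bars of 1 SE, filled points for called values and open points for values not called. All 12 points lie below 0, from -11.63 for Dmp1 in 1013/1013 to -1.71 for Fam20c in WT.

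The relatives and pathway partners of these genes came from lists chosen for their roles, with earlier results of these data known. They moved in part in the same direction between the cell types. Of 5 SIBLING and secretory kinase relatives, 4 were tested and 3 were called lower in WT SSCs, namely Spp1 (osteopontin, -2.87 ± 0.52), Ibsp (bone sialoprotein, -2.73 ± 0.67) and Fam20b, a xylose kinase (-1.10 ± 0.33). Dspp was at 0 in every library. The same 3 were called in +/1013, and Fam20b alone in 1013/1013 (-1.61 ± 0.39), where DESeq2 called 3 of the 4. Of 20 genes of the FGF23 and phosphate pathway, 6 were called lower and 1 higher in WT SSCs, 9 and 0 in +/1013, and 7 and 0 in 1013/1013. Vdr, the vitamin D receptor, was among the largest falls with -4.72 ± 0.89, -5.78 ± 0.93 and -7.98 ± 1.26 in the 3 genotypes, as was Phospho1, a phosphatase of matrix vesicles, with -6.26 ± 0.99, -6.93 ± 1.03 and -5.92 ± 1.18. Pth1r, the parathyroid hormone receptor, fell by 2.87 on the log2 scale in WT. The single rise in WT was Slc20a1, a phosphate transporter (2.41 ± 0.69), named here after its value was seen. Kl, the FGF23 co-receptor klotho that the kidney makes, stayed below 2 CPM in every library.

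Among 14 genes of the sclerostin and Wnt pathway, 5 were called lower and 1 higher in WT SSCs, 7 and 1 in +/1013, and 7 and 2 in 1013/1013. Dkk1, a secreted Wnt inhibitor like sclerostin, was at 43.5 to 105 CPM in WT OPCs and 0.0316 to 0.495 CPM in WT SSCs (-7.87 ± 1.32). Sfrp4, another secreted Wnt antagonist, went the other way with 3.10 ± 0.37 in WT, 3.25 ± 0.37 in +/1013 and 3.53 ± 0.39 in 1013/1013. Lrp4, the receptor that anchors sclerostin, was called in +/1013 (-2.49 ± 0.74) and 1013/1013 (-2.99 ± 0.89). Of 12 other genes linked to osteocytes, 3, 3 and 4 were called lower in SSCs and 1, 2 and 2 higher. Irx5, a transcription factor, and Ptprz1, a receptor phosphatase, were lower in all 3 genotypes, from -2.92 to -4.17 and from -3.08 to -6.08. Capg, an actin-capping protein, was higher in SSCs in all 3, from 1.52 to 2.35. All 12 osteoblast markers were called lower in WT and +/1013 SSCs and 10 of 12 in 1013/1013 SSCs, and 4 of 6 chondrocyte markers in each genotype. Among the chondrocyte markers, 1 of 6 had a positive log2 fold change in each genotype. Osteoblast markers and most chondrocyte markers thus moved with the osteocyte genes, and their part in the result was not tested.

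The second question was whether the 1013 allele changed these genes within a cell type. In OPCs none of the 6 tested was called in +/1013 or in 1013/1013 by edgeR, none had an unadjusted p under 0.05, and DESeq2 called none. Over all 16207 genes the same fits called 0% and 0.00617%, or 0 and 1 genes, with 331 and 548 at an unadjusted p under 0.05, and DESeq2 called 69 and 65. The members were read against this near-empty background.

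OPC libraries of the 3 genotypes overlapped for each of the 6 genes. For Dmp1 the +/1013 group spanned 268 to 1689 CPM around WT values of 332 to 717, and its mean of 834 ± 753 CPM (SD, n = 3) stood beside 543 ± 195 in WT and 712 ± 502 in 1013/1013. The log2 fold change was 0.61 ± 0.72 in +/1013 and 0.38 ± 0.72 in 1013/1013, and an interval of 2 SE on either side ran from -0.83 to 2.05 and from -1.05 to 1.82. Without replicate 2 of the mutant group, the direction turned to -0.43 in +/1013 and -0.35 in 1013/1013. Mepe differed from WT by 0.49 ± 0.55 and 0.43 ± 0.55, and Phex by 0.23 ± 0.54 and -0.06 ± 0.54. Fam20c gave the narrowest bounds, with -0.02 ± 0.28 (2 SE from -0.58 to 0.53) in +/1013 and 0.02 ± 0.28 (2 SE from -0.53 to 0.57) in 1013/1013. For Sost the difference was 0.05 ± 1.64 and -2.08 ± 1.71, with 1013/1013 libraries at 0, 0.980 and 0.0731 CPM and WT libraries at 0.842, 2.96 and 0.607 CPM. For each of these genes the interval of 2 SE took in 0, and differences as large as its ends were not excluded.

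In SSCs 5 members were tested, since Sost did not pass the filter there, and edgeR called none in +/1013 and none in 1013/1013. Of all 17659 genes, 0.0736% and 0% were called, 3061 and 3224 had an unadjusted p under 0.05, and DESeq2 called 1396 and 1850. Dmp1 was the only member with an unadjusted p under 0.05. The 2 SSC libraries of 1013/1013, at 0.0367 and 0.410 CPM, were below the 3 WT libraries at 1.51 to 7.94 CPM, with a log2 fold change of -4.03 ± 1.70 (edgeR adjusted p = 0.267). DESeq2 called it, with -4.11 ± 1.35 (DESeq2 adjusted p = 0.0280), where it called 10.8% of all genes tested. The adjusted p ran from 0.0280 to 0.564 over its 14 alternatives, and the log2 fold change from -6.58 to -2.79 with single libraries left out. Other cell markers differed between the same libraries. Osteoblast markers took 2.55% to 3.21% of counts in WT SSCs and 1.15% to 1.59% in the 5 mutant SSC libraries, and Sca-1-positive fibroblast markers took 0.255% to 0.352% and 0.369% to 0.855%, without overlap in either case. The osteoblast share is a sum led by Col1a1 and Col1a2, and the genes did not all fall. Of 12 osteoblast markers, 2 had a positive log2 fold change in +/1013 and 4 in 1013/1013, among them Spp1 (0.90 ± 0.49 and 0.52 ± 0.54). Of 6 chondrocyte markers, Comp alone was positive (0.68 ± 0.60 and 0.75 ± 0.66). In 1013/1013 SSCs DESeq2 called the collagen genes Col1a1 (-2.15), Col2a1 (-5.70) and Col10a1 (0.419 to 9.05 CPM in WT and at most 0.0367 CPM in 1013/1013, under the limit of 3 counts) lower and Ly6a (1.27), Ly6c1 (1.54) and Dpt (1.81) higher. Their part in the Dmp1 value was not tested. In +/1013 SSCs Dmp1 spanned 0.506 to 7.74 CPM, overlapping WT, with a log2 fold change of -0.14 ± 1.25.

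Phex was at 11.3 to 15.6 CPM in +/1013 SSCs and 3.79 to 7.47 CPM in WT SSCs, with a log2 fold change of 1.32 ± 1.25 (edgeR adjusted p = 0.673), and was not called. How many of all genes separate the SSC libraries in this way was not counted, here or for Dmp1 in 1013/1013. In 1013/1013 SSCs it was -0.06 ± 1.38, a mean over a library of 2 counts and one of 569. Left with replicate 1 only, a lone library assumed to vary like the other groups, Phex was called at -7.17 (edgeR adjusted p = 0.00366), in a fit that called 14.8% of all genes, and without replicate 1 it was 0.93. Mepe was 2.74 ± 2.35 in +/1013 and 3.76 ± 2.56 in 1013/1013, the second carried by replicate 1 alone, since the other library was at 0. Fam20c differed by -0.19 ± 0.31 and -0.09 ± 0.35. The 1013/1013 SSC replicate 1 library had the fewest genes with a count (15748) and 0.855% of its counts on Sca-1-positive fibroblast markers, against 0.369% in replicate 2. The part of either in these values was not tested.

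The genotype effect was also compared between the cell types, as an interaction in the fit of all 17 libraries. No member was called for the +/1013 effect, where 0.084% of 20238 genes were, or for the 1013/1013 effect, where 0.153% were. Dmp1 came closest, its 1013/1013 effect being lower in SSCs than in OPCs by a log2 difference of -4.42 ± 1.67 (edgeR adjusted p = 0.259). DESeq2 called this difference (-4.45 ± 1.51, DESeq2 adjusted p = 0.0449), as it did for 7.48% of the genes it tested. Without 1013/1013 SSC replicate 2, edgeR called Phex instead, and not Dmp1, in a fit that called 8.73% of all genes.

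**Figure D3:**
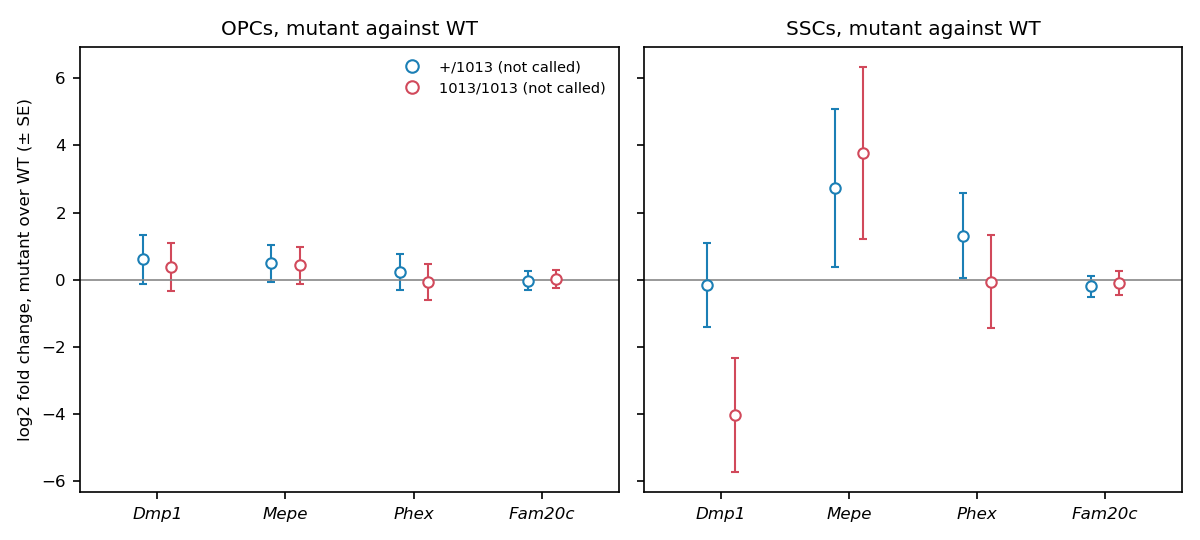
Log2 fold change of +/1013 and 1013/1013 against WT for Dmp1, Mepe, Phex and Fam20c, in OPCs on the left and SSCs on the right, from edgeR fits within each cell type, with bars of 1 SE. In OPCs the 8 points lie between -0.06 and 0.61, in SSCs between -4.03 and 3.76, and no point was called.

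The partner genes were compared between genotypes in the same fits. In OPCs none of the relatives, the phosphate and Wnt pathway genes or the other genes linked to osteocytes was called by either tool. Spp1, for instance, was -0.17 ± 0.45 in +/1013 and -0.57 ± 0.45 in 1013/1013, and Alpl, the phosphatase that frees phosphate for mineral, was 0.12 ± 0.29 and -0.11 ± 0.29. In SSCs edgeR called none of them. DESeq2 called 4 of 48 tested in each genotype, or 8.33%, against 8.14% of all genes in +/1013 and the 10.8% given above in 1013/1013, so that the share was near or below the background. Markers in 4 lists of cell types were called more often in +/1013, and in 1013/1013 only those of chondrocytes and fibroblasts were. Of 12 osteoblast, 6 chondrocyte, 8 Sca-1-positive fibroblast and 11 leukocyte and erythroid markers, DESeq2 called 3, 3, 3 and 6 in +/1013. In 1013/1013 it called 1, 2, 3 and 0. The fibroblast markers called were higher in mutant SSCs and the others lower. All 4 shares in +/1013 were above that of all genes, as were the chondrocyte and fibroblast shares in 1013/1013. The osteoblast and leukocyte shares in 1013/1013 were below it. Of endothelial markers DESeq2 called 1 of 5 tested in +/1013 and 0 of 5 in 1013/1013, and of osteoclast markers 0 of 3 in both. The partners called were Furin, a protease that cleaves FGF23, lower in both genotypes (-1.85 in +/1013 and -1.75 in 1013/1013), with Vdr lower in 1013/1013 (-3.85), Lrp5, a Wnt co-receptor, lower in +/1013 (-1.84), Piezo1, a mechanosensitive channel, lower in both (-2.01 and -2.50) and Capg higher in both (0.60 and 0.59).

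Within OPCs the members did not vary as a block. Dmp1 and Phex rose and fell together across the 9 OPC libraries (Pearson r = 0.90, Spearman rho = 0.88 on log2 CPM, and r = 0.73 without the 2 libraries farthest from the median of Dmp1). Phex and Sost gave r = 0.78 and Dmp1 and Sost r = 0.60. Mepe, the chromosomal neighbour of Dmp1, gave r = -0.05 with Dmp1 (rho = -0.38) and r = -0.18 with Phex. Fam20c gave r = 0.28 with both Dmp1 and Phex. Without the 2 libraries farthest from the median of Dmp1, r with Dmp1 moved to -0.67 for Mepe and turned to -0.29 for Fam20c, so these values rest on few libraries. These values are descriptions over 9 libraries that mix 3 genotypes and share the scaling of each library. With Col1a1, the type I collagen gene, r was 0.67 for Dmp1, 0.76 for Phex, 0.88 for Sost and -0.22 for Mepe.

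In each genotype the OPC library numbered 2 was the highest for Dmp1, for Phex and for Sost, at 717, 1689 and 1279.9 CPM of Dmp1 in WT, +/1013 and 1013/1013. Among 12657 genes averaging 1 CPM or more in OPCs, library 2 was the highest in all 3 genotypes for 3.49%, against 11.0% for library 1 and 5.03% for library 3. For Mepe the highest library was replicate 1 in WT and +/1013 and replicate 3 in 1013/1013, so no number led throughout. The 1013/1013 OPC replicate 2 also held 0.998% of its counts on leukocyte and erythroid markers, against 0.00386% to 0.0121% in the other 1013/1013 OPC libraries, and WT OPC replicate 3 held 0.698%. Their part in the Dmp1 and Phex values was not tested, and in +/1013 replicate 2, where both genes were highest of all, the share was 0.0219%.

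**Figure D4:**
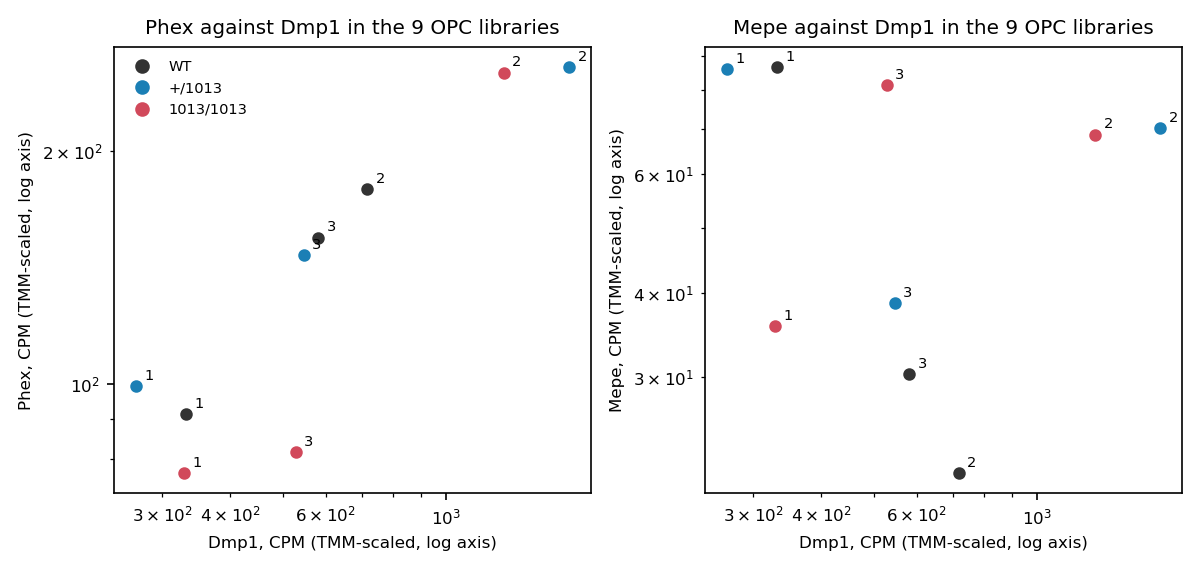
Phex (left) and Mepe (right) against Dmp1 in the 9 OPC libraries, in TMM-scaled CPM on log axes, with genotypes by colour and the library number beside each point. Phex follows Dmp1 (r = 0.90), with the 3 libraries numbered 2 at the upper right, while Mepe gives r = -0.05.

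The genes whose log2 CPM was most like that of each member over the 9 OPC libraries, among up to 7956 genes averaging 10 CPM or more, are listed here without regard to their function. For Dmp1 they were Inafm2 (r = 0.95), Ddit4l (0.94) and Fzr1 (0.93), and for Phex Ddit4l (0.95), Zadh2 (0.94) and Lgr6 (0.93). Ddit4l was thus shared by the 2 lists. Mepe was most like Thbd (0.95), Lonp2 (0.93) and Sfxn2 (0.90), Sost like Pdgfc (0.96), Wipi2 (0.92) and Wbp1l (0.92), and Fam20c like Tmem18, Zfp292 (both 0.92) and Abca2 (0.89). Fgf23, which was above 0 in only 3 of these libraries, gave Rara (0.98), Rab3il1 (0.96) and Daglb (0.95). With so many genes compared over 9 libraries, such values are a description only.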

How the data were processed

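The 17 files hold whole-number counts of reads per gene, deposited by the authors without normalization. The authors sorted pools of 3000 cells, amplified cDNA (SMART-Seq v4, 12 PCR cycles) from between 400 and 1000 pg of RNA, tagmented it with Nextera XT, sequenced paired ends, dropped reads shorter than 50 bp, aligned the rest to mm10 (STAR) and assigned them to genes (HTSeq). Versions, the annotation release and the strand setting are not given in the sources used here. Depth was 44217695 to 92683497 counts on genes per library. Reads that HTSeq gave to no single gene were used in no total or test, with 1.15% to 4.15% of reads on no gene. Identifiers matched GENCODE M21, without version suffix, for 55154 of 55335 genes.

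Counts were tested with edgeR 4.0.16 (glmQLFit with legacy = TRUE, glmQLFTest, filterByExpr, TMM) in R 4.3.3, within a cell type for genotype and over all 17 libraries for cell type and interactions, without covariates. Benjamini-Hochberg adjustment ran over all genes tested, and calls needed an adjusted p under 0.05 and 1.5-fold. SE is the absolute log2 fold change divided by the square root of F. The scripts were tested on simulated counts. The study used DESeq2, and DESeq2 1.42.0 was an alternative, as were other edgeR settings, scalings and filters, sets of libraries, a replicate block, no fold threshold and each library left out. Correlations used log2 CPM with a prior count of 2. Replicate numbers were not taken to pair the samples.

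The members and lists were chosen with earlier results of these data known. Of each list, up to 4 called genes with the largest change were named in a comparison, or the 2 most abundant where none was called. The exceptions are the genes of which there were 5 or fewer called, Slc20a1 among them, and Dspp, Kl, Lrp4, Piezo1, Furin, Lrp5, Capg and the collagen and fibroblast markers of the SSC comparison, which were chosen once their values were known. The lists of fibroblast, endothelial, leukocyte, osteoclast and chondrocyte markers served as checks of the sort. Calls between the cell types cannot show cells that are present in both or in single libraries. Chondrocyte markers took 1.22% to 8.07% of counts in OPC libraries and 0.413% to 2.25% in SSC libraries. Endothelial markers were called in 0, 1 and 0 cases between cell types in WT, +/1013 and 1013/1013, leukocyte and erythroid markers in 0, 0 and 0, osteoclast markers in 0, 1 and 0, and Sca-1-positive fibroblast markers, all higher in SSCs, in 6, 7 and 7 of 8. Of 7 genes of the sorting antibodies, 2, 2 and 4 were called.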

Additional observations from a re-analysis of the deposited data

How the results depend on the processing

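Of 146 recomputed counts of called members, 135 stayed within 1.5 times the count reported, with the exceptions below. That rule takes 0 against 0 and 2 against 3 as unchanged, so it passes some fits in which a call was lost. A filter of 10 counts in every library left 1 called member between cell types in each genotype (Fam20c), because the other called members fell below it in SSCs. With only the 2 groups compared, 1 member was called in 1013/1013 (Dmp1), with Fam20c at an edgeR adjusted p of 0.0638 and Phex at 0.255. DESeq2 called 5 members between cell types in +/1013, and 1 (Dmp1) in 1013/1013 against WT SSCs and in the 1013/1013 interaction. With single libraries left out, the called members numbered 2 to 4 between cell types in WT, 2 to 3 in +/1013, 2 to 3 in 1013/1013, and 0 to 1 in 1013/1013 against WT SSCs and in the 1013/1013 interaction. Among the members, direction turned only for differences that were not called with all libraries. Over the libraries left out, the OPC log2 fold changes ran, in +/1013 and 1013/1013, from -0.43 to 1.04 and -0.35 to 0.74 for Dmp1, -0.21 to 0.51 and -0.85 to 0.25 for Phex, and -0.15 to 0.28 and -0.21 to 0.31 for Fam20c, and from -0.44 to 1.08 for Sost in +/1013. Without a turn in direction, they ran from -5.29 to -1.05 for Sost in 1013/1013 OPCs and, for Mepe in OPCs, from 0.15 to 1.32 and 0.091 to 1.25. Between cell types in 1013/1013, Phex ran from -11.74 to -3.69. In SSCs they ran from -1.71 to 1.10 for Dmp1 in +/1013, -7.17 to 0.93 for Phex and -7.43 to 5.07 for Mepe in 1013/1013 (the first a fit to a lone library at 0 counts and no bound), -0.38 to 0.052 and -0.43 to 0.14 for Fam20c, and from -2.30 to 0.50 for the Dmp1 interaction in +/1013. Upper-quartile scaling gave -0.017 for Fam20c in 1013/1013 OPCs. The replicate block gave -0.41 for Sost in +/1013 OPCs and changed no number of called members. Same-numbered libraries of different genotypes deviated together with r from -0.36 to 0.37 in OPCs (median 0.13, 5 of 9 pairs over 0.1). In SSCs 2 of 7 such pairs were over 0.1. For different numbers 3 of 18 OPC pairs (median -0.054) and 1 of 14 SSC pairs were over 0.1. WT OPC and WT SSC libraries of the same number gave r = 0.12, 0.26 and 0.38, against -0.36 to 0.23 for different numbers. In the mutants same-numbered OPC and SSC libraries gave r from -0.037 to 0.076. The numbers were not read as pairs, and whether they mark pairs was not tested. The cause of the shifts between settings was not tested. Sost, Fgf23 and Pdpn were at or near the limit of 3 counts in many libraries, and each group holds 2 to 3 pools. Without a fold threshold no member call changed. Over all genes, DESeq2 called 2057, 2353 and 2797 lower in SSCs in WT, +/1013 and 1013/1013, against 1185, 1218 and 1238 with edgeR.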
